A study of Mus musculus with 2 samples.

Results

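Whole liver holds minor cell types beside its hepatocytes, and 4 miRNA genes that are widely used as their markers were described here. The marker arms were all rows of both count files whose mature name begins with miR-126a, miR-150, miR-146a or miR-200b. This gave 7 mature arms of the 197 named miRNAs that the libraries listed between them, and each of the 7 was listed in both libraries. They comprised mmu-miR-126a-5p and mmu-miR-126a-3p (endothelial cells), mmu-miR-150-5p, mmu-miR-150-3p and mmu-miR-146a-5p (immune cells), and mmu-miR-200b-3p and mmu-miR-200b-5p (biliary and other epithelia). Small RNA had been sequenced from livers of wild-type C57BL/6 mice, 2 to 3 months old and with free access to food, in 1 control group of 2 replicate libraries. The replicates held 306351 and 538023 counts of named miRNAs. The sources used here do not say whether the replicates came from separate mice, so differences between the libraries may be technical. The p-values account for counting error only, within a library or between the 2, and not for the spread between replicates.

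A miRNA hairpin is cut into a duplex, and one strand, the 5p or the 3p arm, is usually kept by an Argonaute protein and pairs with target messages through its seed (bases 2 to 8). miR-126 is made in endothelial cells from within the gene Egfl7, which encodes a vascular secreted protein, and its 5p arm was long written as the star, or passenger, strand. miR-150 is abundant in mature lymphocytes, miR-146a is induced by NF-kappaB and dampens Toll-like receptor signalling, and the miR-200 family maintains the epithelial state by repressing Zeb1 and Zeb2. In liver, miR-122 marks hepatocytes and miR-200 family members mark the bile duct epithelium.

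The listed mature sequences are shown first because the arms are told apart by their seeds, given here in capitals with each arm 5′ to 3′.
mmu-miR-126a-5p: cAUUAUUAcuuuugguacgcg
mmu-miR-126a-3p: uCGUACCGugaguaauaaug
mmu-miR-150-5p: uCUCCCAAcccuuguaccagug
mmu-miR-150-3p (replicate 1): cCUGGUACaggccuggggga
mmu-miR-150-3p (replicate 2): cUGGUACAggccuggggga
mmu-miR-146a-5p: uGAGAACUgaauuccauggg
mmu-miR-200b-3p: uAAUACUGccugguaaugaugac
mmu-miR-200b-5p: cAUCUUACugggcagcauugg

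No 2 of these arms shared a seed, and no other miRNA listed in either library carried one of them. The same sequence was listed in both libraries for 6 of the 7 arms. The exception was miR-150-3p, whose listed 5′ end lay 1 base upstream in replicate 1, so that its seed there was shifted. That arm had 1 count in replicate 1 and 3 in replicate 2. Of the 7 arms, 5 were matched by name to RefSeq mature sequences (GRCm38.p6), and miR-126a-5p and miR-150-5p were not. Among the 5, 4 began at the RefSeq 5′ end in both libraries. Over all named miRNAs placed at their RefSeq position, 89.8% and 88.8% began at that end in replicates 1 and 2. At the 3′ end miR-126a-3p and miR-146a-5p were listed 2 bases short, miR-150-3p 3 bases short and miR-200b-5p 1 base short, while miR-200b-3p was 1 base longer. Over all named miRNAs so placed, 53 of 137 in replicate 1 and 52 of 152 in replicate 2 were shorter at that end. In the same libraries 34 and 37 were longer.

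Relatives that share a seed with a marker arm were absent from both lists. In RefSeq the seed of miR-146a-5p is shared with miR-146b-5p, that of miR-200b-3p with miR-200c-3p and miR-429-3p, and that of miR-200b-5p with miR-200a-5p. These relatives are close in sequence, and the first pair differs at 1 of the 20 listed bases. It is printed here from RefSeq to show where.
mmu-miR-146b-5p: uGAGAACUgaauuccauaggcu
The difference, counted from 1 at the 5′ end with the base of miR-146a-5p first, is G18A. miR-200c-3p differs from miR-200b-3p at 3 of 23 bases. How the counting treated reads that fit such relatives about equally well is not stated in the labels or file headers, so part of the miR-146a-5p or miR-200b-3p counts could belong to them.

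The 4 genes differed in their genomic setting (build GRCm38). Mir126a was listed at chr2:26591365-26591421, plus strand, in an exon of Egfl7 and an intron of Gm20532, per the deposited annotation. In GENCODE M21 the exon belonged to 1 retained-intron transcript of Egfl7, while 7 protein-coding transcripts had the hairpin in an intron. Mir126b is annotated on the opposite strand over the same bases, and neither of its arms was listed. Mir200b lay at chr4:156055684-156055744, minus strand, in introns of the tubulin tyrosine ligase-like gene Ttll10 and of the non-coding Gm13648. Its cluster mates Mir200a and Mir429 lie 695 and 1693 bases away in RefSeq on the same strand, and no arm of either was listed in a library.

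Mir150 and Mir146 were annotated as intergenic, like 88 of 165 named miRNAs in replicate 1 and 102 of 183 in replicate 2. Mir150 was at chr7:45121762-45121816, plus strand. Mir146 was at chr11:43374401-43374456, minus strand. Its nearest annotated gene in GENCODE was the lincRNA Gm12148 at a distance of 11026 bases, and the nearest protein-coding one was Pttg1 at 45794 bases.

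The first question was how much of each marker the whole liver contained. Counts are given as shares of all named miRNA counts in a library, and they are not calibrated against known amounts. mmu-miR-150-5p was the highest of the 7 arms. Replicate 1 had 953 counts of it (0.311%, exact Clopper-Pearson 95% interval 0.292 to 0.331) and replicate 2 had 1059 (0.197%, 0.185 to 0.209). It ranked 34 in both libraries. mmu-miR-126a-5p had 123 counts (0.0402%, 0.0334 to 0.0479) and 180 counts (0.0335%, 0.0287 to 0.0387), and these intervals overlapped. mmu-miR-200b-3p had 60 counts (0.0196%, 0.0149 to 0.0252) and 163 counts (0.0303%, 0.0258 to 0.0353), so that replicate 2 was the higher library. mmu-miR-146a-5p had 91 counts (0.0297%, 0.0239 to 0.0365) and 81 counts (0.0151%, 0.0120 to 0.0187), with replicate 1 the higher. Intervals cover counting error within 1 library only. The sources used here mention no molecular identifiers, so the counts are of reads and may not be of separate molecules.

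The remaining arms were the less abundant strands of their hairpins. miR-126a-3p had 13 counts (0.00424%) and 11 counts (0.00204%). miR-200b-5p had 3 counts in each library, and miR-150-3p had 1 and 3. The ratio of miR-200b-5p to miR-150-3p was 3 (95% interval 0.241 to 157) in replicate 1 and 1 (0.134 to 7.47) in replicate 2, so the levels of this pair are not told apart. miR-146a-3p, the other arm of the Mir146 hairpin, was listed in neither library. In bulk tissue, fewer cells of a type and less of a miRNA per cell cannot be told apart.

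In order of mean share, miR-150-5p exceeded miR-126a-5p 7.75-fold (95% interval 6.42 to 9.43) in replicate 1 and 5.88-fold (5.02 to 6.93) in replicate 2. The next places were not stable. miR-126a-5p exceeded miR-200b-3p 2.05-fold (1.49 to 2.84) in replicate 1 and 1.10-fold (0.888 to 1.37) in replicate 2, where the interval includes equality. miR-200b-3p lay below miR-146a-5p in replicate 1 (ratio 0.659, 0.468 to 0.923) and above it in replicate 2 (2.01, 1.53 to 2.66). miR-146a-5p exceeded miR-126a-3p 7-fold (3.90 to 13.6) and 7.36-fold (3.91 to 15.3). The levels fell into 3 tiers, with miR-150-5p on top, miR-126a-5p, miR-200b-3p and miR-146a-5p together in the middle, and the minor arms at the bottom.

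The miRNAs nearest in level, leaving out the marker arms themselves, were chosen by the smallest difference in mean log2 share over the 2 libraries. For miR-150-5p they were let-7d-5p and miR-21a-5p (differences 0.03 and 0.03). For miR-126a-5p they were miR-183-5p (0.01) and miR-6236 (0.02), and for miR-200b-3p they were miR-92a-1-5p (0.26) and miR-1839-5p (0.30). miR-1839-5p (0.09) was also nearest to miR-146a-5p, with miR-28a-3p (0.09). miR-674-5p (0.03) and miR-214-3p (0.08) were nearest to miR-126a-3p. The arms with at most 3 counts lay beside other arms with as few, let-7b-3p and miR-30c-2-3p for miR-200b-5p, and miR-107-5p and miR-183-3p for miR-150-3p.

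**Figure D1:**
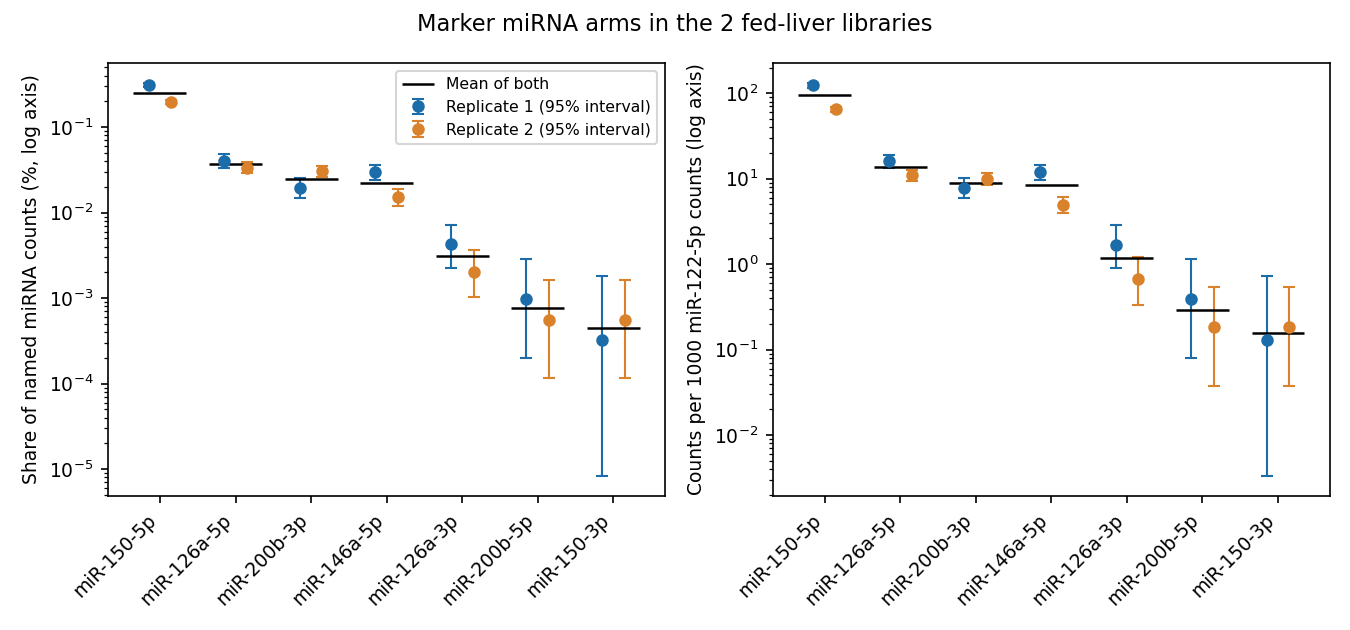
Level of each of the 7 marker arms in replicate 1 and replicate 2, as a share of named miRNA counts in percent (left) and as counts per 1000 miR-122-5p counts (right), both on log axes. Points are single libraries with exact 95% intervals and black lines are the mean of both. miR-150-5p stands above all other arms in both libraries, and the arms with 1 to 3 counts have wide intervals.

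The second question was how the markers stood against the hepatocyte miRNA. miR-122-5p had 7668 counts in replicate 1 and 16356 in replicate 2, which made it rank 10 and rank 8. The most abundant miRNA was miR-22-3p, with 33.6% of counts in replicate 1 and 33.9% in replicate 2. Levels relative to miR-122-5p are ratios of counts and not of cells. Per 1000 miR-122-5p counts there were 124 counts of miR-150-5p in replicate 1 (116 to 133) and 64.7 in replicate 2 (60.8 to 68.9), a mean of 94.5 ± 42.1 (SD, n = 2). miR-126a-5p reached 16.0 (13.3 to 19.2) and 11.0 (9.45 to 12.7), a mean of 13.5 ± 3.56. miR-200b-3p reached 7.82 (5.97 to 10.1) and 9.97 (8.49 to 11.6), a mean of 8.90 ± 1.51. miR-146a-5p reached 11.9 (9.54 to 14.6) and 4.95 (3.93 to 6.16), a mean of 8.41 ± 4.89. Read the other way, miR-122-5p exceeded miR-150-5p 8.05-fold and 15.4-fold, and miR-126a-5p 62.3-fold and 90.9-fold. All 7 arms together came to 162 counts per 1000 of miR-122-5p in replicate 1 and 91.7 in replicate 2.

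Short lists of arms used as markers of these cell types were then counted. They do not cover every miRNA of a cell type. Of 4 endothelial arms (both arms of Mir126a and Mir126b), 2 were listed, and they summed to 0.0444% and 0.0355% of counts. Of 10 immune arms, 3 were listed in each library. miR-142a-3p and miR-142a-5p, common to blood cells, miR-223-3p and miR-223-5p of myeloid cells, and miR-155-5p of activated lymphocytes and macrophages were among those not listed. The immune sum was 0.341% in replicate 1 and 0.212% in replicate 2. Of 9 biliary and epithelial arms of the miR-200 family, only those of Mir200b were listed, at 0.0206% and 0.0309%. The files list called loci only, so an arm that is not listed sets no upper limit on its level.

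The same lists gave the tissue's main cell type and the other minor ones. All 4 hepatocyte arms were listed, at 4.33% and 4.65% of counts. For stellate and mesenchymal cells 4 of 6 arms were listed in replicate 1 and 5 in replicate 2, at 0.554% and 0.342%, which is above the immune sum in each library. Of 5 erythroid arms none was listed in replicate 1, and miR-486b-5p alone, with 14 counts, in replicate 2. The immune sum was higher in replicate 1 and the biliary sum in replicate 2. All listed arms of the endothelial, immune and biliary lists were marker arms described above, so these sums repeat their counts. In the stellate list miR-145a-5p had 1060 and 702 counts, a TMM-scaled log2 ratio of replicate 2 to replicate 1 of -1.24, and was lower in replicate 2 (exact test, adjusted p = 6.25e-71). miR-143-3p, with 628 and 1073 counts and a log2 ratio of 0.12, did not pass (exact test, adjusted p = 0.185).

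**Figure D2:**
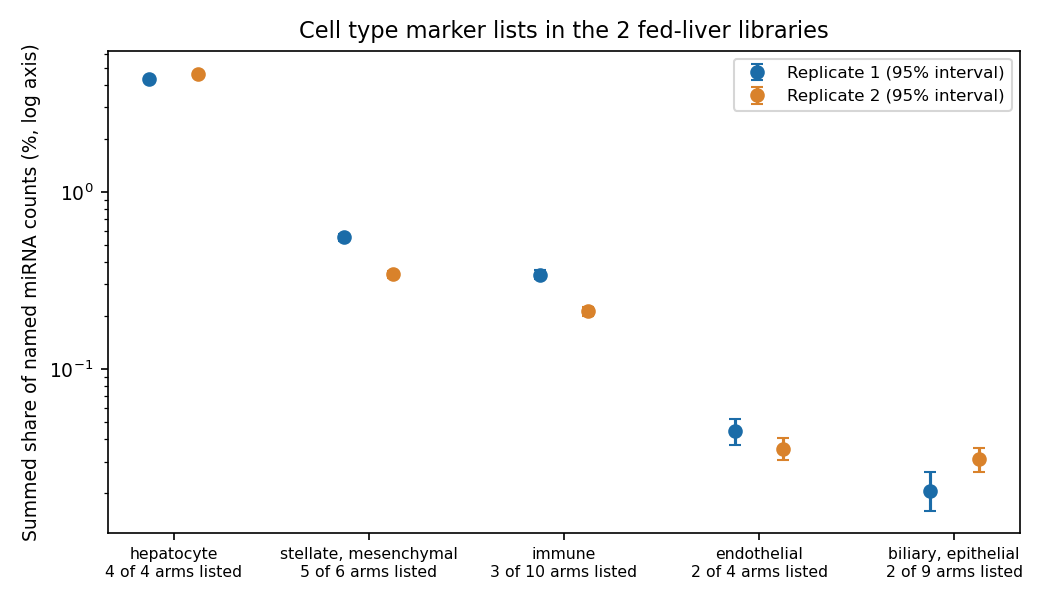
Summed share of named miRNA counts, in percent on a log axis, for 5 cell type lists in replicate 1 and replicate 2, with exact 95% intervals. Below each list stands how many of its arms were listed in either library. The hepatocyte list is above 4% in both libraries, the immune list between 0.212% and 0.341%, and the endothelial and biliary lists below 0.05%.

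The third question was whether the libraries differed in these markers by more than counting error. A 2-sided exact binomial test was run for each of 131 miRNAs that both libraries listed and whose counts summed to 10 or more. It used TMM-scaled library sizes and Benjamini-Hochberg adjustment, with adjusted p under 0.05 as the threshold. It compares these 2 libraries and not conditions. Of the 7 arms 5 were tested, and miR-150-3p and miR-200b-5p had too few counts. miR-200b-3p was higher in replicate 2 (log2 ratio 0.79, exact test, adjusted p = 0.000641). miR-150-5p was lower there (-0.50, exact test, adjusted p = 1.11e-13), and so was miR-146a-5p (-0.81, exact test, adjusted p = 0.000693). The immune arms were thus lower and the epithelial arm higher in the same library.

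Neither arm of the endothelial miRNA passed. miR-126a-5p had a log2 ratio of -0.10 (exact test, adjusted p = 0.720), and miR-126a-3p had -0.85 on 13 and 11 counts (exact test, adjusted p = 0.252). Among all 131 tested miRNAs 44.3% passed, 21.4% as higher and 22.9% as lower in replicate 2, and 3 calls among 5 arms are not set apart from that background. The median log2 ratio was -0.50 over the 5 arms and -0.02 over all tested miRNAs. Over miRNAs listed in both libraries the common coefficient of variation was 0.229 from edgeR with an intercept-only design and 0.352 from DESeq2, and with unlisted miRNAs as 0 it was 0.722 from edgeR.

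Scaled by library totals instead of TMM, the median of all tested miRNAs became -0.19, and 64 miRNAs passed, 19 higher and 45 lower, against 58 (28 and 30) with TMM. On that scale miR-150-5p stood at -0.66, miR-146a-5p at -0.97, miR-200b-3p at 0.63 and miR-126a-5p at -0.26, and the same 3 arms passed.

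**Figure D3:**
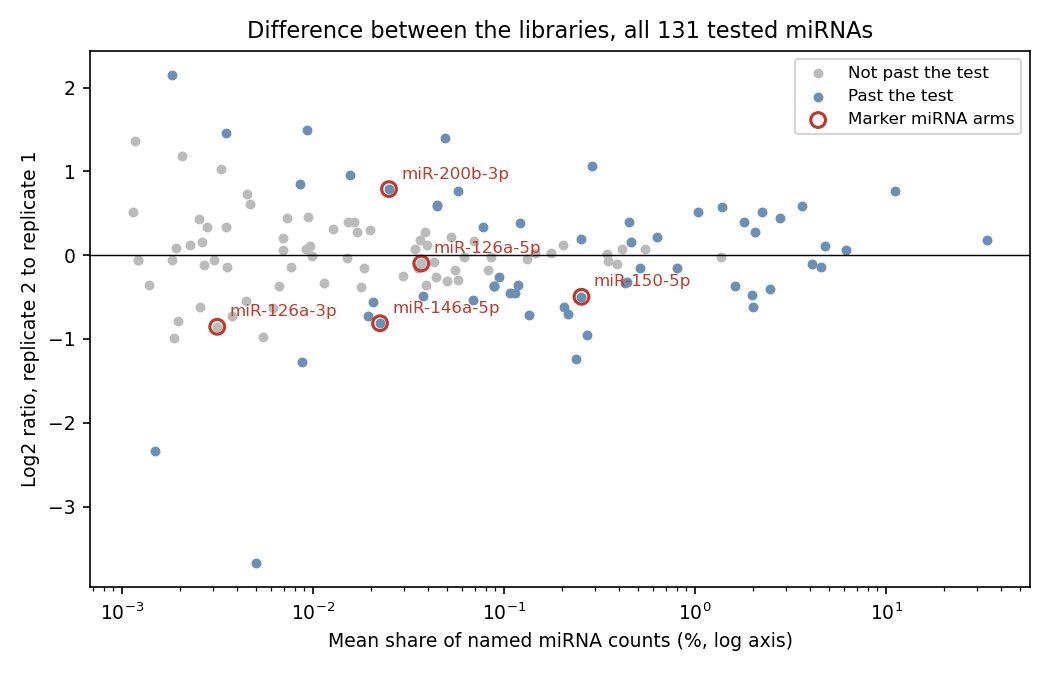
Log2 ratio of replicate 2 to replicate 1 against the mean share of named miRNA counts (percent, log axis) for the 131 tested miRNAs. Blue points passed the exact binomial test after adjustment, grey points did not, and red rings mark the 5 tested marker arms. miR-200b-3p lies above 0 at 0.79 and miR-146a-5p and miR-150-5p below at -0.81 and -0.50, inside the spread of the other miRNAs.

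Set against miR-122-5p within each library, with no library scaling, most marker arms were lower in replicate 2. By 2-sided Fisher's exact tests over 130 miRNAs with the same adjustment, 4 of the 5 arms were lower in replicate 2 relative to miR-122-5p. Of all tested miRNAs 56.9% passed on this scale, 50.8% as lower and 6.15% as higher, with a median log2 ratio of -0.47. miR-122-5p itself took 2.50% of replicate 1 and 3.04% of replicate 2. The ratio of miR-150-5p was -0.94 (Fisher's exact test, adjusted p = 2.40e-42) and that of miR-146a-5p was -1.26 (adjusted p = 5.37e-08 by the same exact test). miR-126a-5p had -0.55 (exact adjusted p = 0.00317) and miR-126a-3p -1.32 (exact adjusted p = 0.0481).

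miR-200b-3p did not pass against miR-122-5p (0.34, exact adjusted p = 0.167). With miR-192-5p, another hepatocyte miRNA, as the reference, the median of all miRNAs was -0.01. The ratios of miR-126a-5p (-0.084, exact adjusted p = 0.770) and miR-126a-3p (-0.86, exact adjusted p = 0.251) then did not pass, and that of miR-200b-3p did (0.80, exact adjusted p = 0.000594). The lower ratios of miR-150-5p and miR-146a-5p passed with either reference.

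The fourth question concerned arm choice, the side of the hairpin from which the counts came. Arm counts, like the levels, are not calibrated against known amounts. Whether they match the strands kept in the tissue was not tested. The deposited hairpins are printed with the listed arms in capitals, to show where the arms lie on each side of the loop (Mir150 as listed in replicate 2).
Mir126a: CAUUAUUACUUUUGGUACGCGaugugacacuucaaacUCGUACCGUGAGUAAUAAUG
Mir150: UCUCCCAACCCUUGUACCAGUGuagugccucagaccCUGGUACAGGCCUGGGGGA
Mir200b: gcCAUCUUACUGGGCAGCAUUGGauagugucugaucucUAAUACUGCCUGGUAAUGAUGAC

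By counts, Mir126a was dominated by its 5p arm. The 5p arm took 90.4% (95% interval 84.2 to 94.8) of the hairpin's counts in the first replicate and 94.2% (89.9 to 97.1) in the second. That is a ratio of 5p to 3p of 9.46 (5.33 to 18.3) and 16.4 (8.93 to 33.4). Against equal shares the exact binomial test gave adjusted p-values of 1.71e-23 and 2.10e-40 over 47 hairpins with both arms listed and at least 20 counts in each library. That Mir126a was 5p-dominated was known when it was chosen, so its p-values are a description and no independent support. Of those hairpins 42.6% passed as 5p-dominated and 51.1% as 3p-dominated, each time in both libraries. Mir126a was one of the less one-sided of the 5p-dominated hairpins, in place 18 of 20. The hairpins nearest to it in mean 5p share (92.3% ± 2.69, SD, n = 2) were Mir1981 at 93.8% ± 0.403 and Mir532 at 96.6% ± 0.220.

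Mir200b had the opposite choice. Its 5p arm took 4.76% of counts in replicate 1 (0.993 to 13.3) and 1.81% in replicate 2 (0.374 to 5.19). The ratio of 3p to 5p was 20 (6.52 to 99.7) and 54.3 (18.3 to 266), with adjusted p-values of 1.22e-14 and 2.32e-44 by the exact binomial test. It held place 14 of the 24 hairpins dominated by 3p, next to Mir140 (2.61% ± 1.45 on 5p) and Mir378a (2.31% ± 0.326). Mir150 was almost entirely 5p, at 99.9% (99.4 to 99.997) and 99.7% (99.2 to 99.9), with Mir15b (99.8% ± 0.00662) and Mir125b-1 (99.8% ± 0.109) nearest. Some tested hairpins, Mir125b-1 among them, have an abundant arm named without a gene copy and a minor arm named with one. Their shares, and so the places given here, may include reads from other gene copies. For Mir146 no share was computed, since its 5p arm alone was listed.

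No difference in arm share between the libraries passed the test in the 3 hairpins. By Fisher's exact test with adjustment over the 47 hairpins, the adjusted p-values were 0.640 for Mir126a, 0.914 for Mir200b and 1 for Mir150. Of all tested hairpins 8.51% differed. The minor arm had 13 and 11 counts in Mir126a and 3 in each library in Mir200b, and how small a change this test would detect was not tested.

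**Figure D4:**
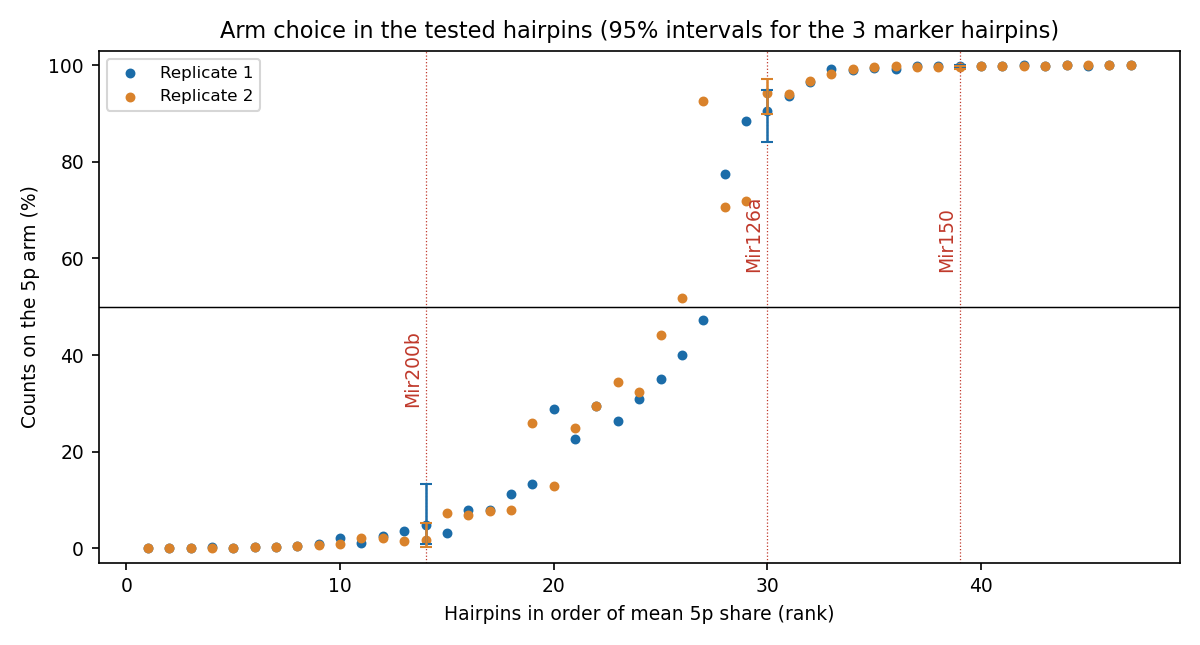
Share of counts on the 5p arm, in percent, for the 47 tested hairpins in order of their mean share, with 1 point for each library. Dotted lines mark Mir200b, Mir126a and Mir150, whose points carry exact 95% intervals. Mir126a sits at 90.4% and 94.2%, at the lower end of the hairpins dominated by 5p, and Mir200b at 4.76% and 1.81%.

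The ends of the arms were compared as well, a feature chosen after the arm shares were seen and given as a description. In Mir150 and Mir200b the abundant arm began with U and the minor arm with C. In Mir126a it was the reverse, as the abundant 5p arm began with C and the minor 3p arm with U. Among the 44 hairpins with a dominant arm, only the dominant arm began with U in 21, and only the minor arm in 6, Mir126a among them. Within the first 4 bases the abundant arm of Mir126a had 1 G or C against 2 in the minor arm. The counts were 0 against 2 in Mir200b and 2 against 3 in Mir150. Over the 44 hairpins the dominant arm had fewer in 19, as many in 16 and more in 9.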

How the data were processed

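Small RNA libraries were made from total liver RNA with an Illumina TruSeq kit, per the labels' protocols. The authors deposited, for each library, unnormalised counts of reads at every miRNA locus they called, with its position, sequences and annotation. Tools named in the submitters' processing notes are Bowtie 1.0.1, cutadapt 1.5 and FastQC 0.11.2, on GRCm38 (mm10). No source used here states how loci were called and filtered.

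Replicates 1 and 2 listed 200 and 220 loci. Unnamed loci held 5.02% and 2.46% of all listed counts and were left out. Where a name had several loci, the highest count was used, which applied to none of the 7 arms. File positions were raised by 1. With 1 group there was no contrast for a quasi-likelihood test, so libraries were compared by exact tests (scipy 1.17.1) at edgeR 4.0.16 TMM sizes, with a prior count of 0.5 in log2 ratios. miRNAs listed in 1 library only were not tested. Alternatives were DESeq2 1.42.0 size factors, library totals, other count minimums, unlisted miRNAs as 0, summed loci and another reference miRNA. On simulated counts with counting error alone for 131 miRNAs, the test between libraries called 57.0% of 1.5-fold and 73.8% of 2-fold changes and 1.04% of unchanged miRNAs. The simulation used known library totals in place of TMM sizes and had no spread between replicates. Its rates therefore do not describe the test on the deposited libraries.

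All marker arms, reference miRNAs, the 2 nearest miRNAs in level and the 2 nearest hairpins in 5p share were named. Members and lists were chosen with earlier results of these data known.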

Additional observations from a re-analysis of the deposited data

How the results depend on the processing

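Over 33 results, 132 alternative values were computed. Of these, 34 are shares, levels and arm shares without one replicate, which only repeat the other library's values and are not counted as a check. Of the remaining 98, 91 were counted as unchanged. Ratios and arm shares had to keep their direction and side of the threshold, and levels to stay within the spread between replicates. For counts of calls the rule was looser, and 76 passing miRNAs with unlisted ones as 0, against 58, counted as unchanged. Some values could not change, such as exact p-values with another prior count or 5p shares with another count minimum. The 91 of 98 is therefore no measure of robustness. Those not counted as unchanged concerned ratios to miR-122-5p and the spread, whose alternatives were all listed as changed without a rule. With no count minimum the ratio of miR-126a-3p (-1.32) no longer passed (exact adjusted p = 0.0554), as more miRNAs were tested. With miR-192-5p as reference the ratios were -0.86 for miR-126a-3p, -0.084 for miR-126a-5p and 0.80 for miR-200b-3p, of which only the last passed. The coefficient of variation between libraries was 0.352 with DESeq2's dispersion, 0.722 with unlisted miRNAs as 0 and 0.216 with at least 50 counts summed, and the cause was not tested. No paired analysis was possible because there is 1 group, and no replicate could be left out of the tests between libraries. With 3 or fewer counts, miR-150-3p and miR-200b-5p support no comparison of level.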

Other observations

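The deposited hairpin sequences did not always match the reference genome's hairpins. For Mir126a the hairpin listed in both libraries differed from the RefSeq hairpin (GRCm38.p6) by C22A, counted from 1 at the 5′ end of the deposited hairpin with the RefSeq base first. That position is the first base after the listed end of miR-126a-5p, at position 21. For Mir146 the hairpin of replicate 1 matched RefSeq and that of replicate 2 differed by A25U, between the listed 5p arm and the opposite side of the stem. The Mir200b hairpin matched in both libraries. Among the distinct hairpin intervals of named miRNAs that lie within a RefSeq hairpin, 91 of 129 in replicate 1 and 102 of 138 in replicate 2 differed at 1 or more bases. The arms of a gene can be listed with different intervals, so a gene can count more than once. The listed hairpin sequences therefore cannot be read as genome sequence. Where in the hairpin the differences lie was examined for the marker hairpins only.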
